A study of Mus musculus with 11 samples.

Results

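The circadian clock of the liver was followed through 10 genes, Clock, Npas2, Per1, Per2, Cry1, Nr1d1, Nr1d2, Dbp, Tef and Nfil3, in livers of Gsr-null and wild-type (WT) mice killed in the afternoon. All probe sets that the platform annotation gives to exactly 1 of these symbols were taken, which gave 17 of the 22626 probe sets of the array that are not controls, for 10 of 12393 genes. Of these, 10 probe sets of 8 genes read more than 4 (log2) in 5 or more livers and were tested, while the other 7, among them both probe sets of Npas2 and the 1 of Nr1d1, are given as values without a test. Glutathione reductase, the product of Gsr, keeps glutathione in its reduced form.

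The samples were livers of 6 Gsr-null and 5 WT mice, measured on Affymetrix arrays, 1 mouse per array. All were C57BL/6J males aged 15 to 20 weeks, and their livers were taken between 2 and 4 p.m. The labels call the samples of a genotype biological replicates, and the sample numbers used here are those replicate numbers. For the Gsr-null livers the titles also hold a number in brackets, which differs from the replicate number. Neither the Gsr allele, the light schedule, the feeding state nor the hour of each single harvest is given in the sources used here.

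The clock is a loop of transcription factors that runs in almost every cell. CLOCK, or its relative NPAS2, pairs with BMAL1 (gene Arntl) and switches on genes with E-box sites, among them the Per and Cry genes, Nr1d1, Nr1d2, Dbp and Tef. PER and CRY proteins then repress the pair. The nuclear receptors REV-ERB alpha and beta (Nr1d1 and Nr1d2) repress Arntl, Clock, Npas2, Cry1 and Nfil3 through ROR elements. DBP, TEF and HLF activate, and NFIL3 represses, genes with D-box sites, many of which belong to liver metabolism. In livers of mice kept in light and dark, Dbp and the REV-ERB transcripts are known to be abundant in the later part of the day, and those of Arntl, Clock, Cry1 and Nfil3 around the end of the night.

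Upstream sequences are shown for Dbp, Per1, Tef, Cry1 and Nfil3, because these site types set the arms of the loop apart. The table of RefSeq promoters (build GRCm38.p6) held 13 windows for 9 of the 10 genes, of which 250 bases before each start were searched on both strands. The motifs were the E-box CACGTG, the related E' box CACGTT, the D-box as TTATGTAA or TTACGTAA, and the ROR element core as TAGGTCA or TGGGTCA. Matches stand in capitals and no matches overlapped. Each sequence runs 5′ to 3′ on the strand of its gene, and for Per1 and Tef the first listed start is shown.
Dbp, chr7:45704997-45705246, plus strand: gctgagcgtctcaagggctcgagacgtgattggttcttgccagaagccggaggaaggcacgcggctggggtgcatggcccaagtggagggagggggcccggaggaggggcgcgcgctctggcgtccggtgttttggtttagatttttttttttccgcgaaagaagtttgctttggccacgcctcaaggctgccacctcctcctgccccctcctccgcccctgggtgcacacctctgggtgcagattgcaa
Per1, chr11:69098699-69098948, plus strand: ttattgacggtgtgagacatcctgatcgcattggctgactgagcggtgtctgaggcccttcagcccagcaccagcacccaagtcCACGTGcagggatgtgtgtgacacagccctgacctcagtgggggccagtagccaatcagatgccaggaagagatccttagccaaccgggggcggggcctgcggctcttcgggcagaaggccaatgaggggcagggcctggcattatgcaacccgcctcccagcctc
Tef, chr15:81802423-81802672, plus strand: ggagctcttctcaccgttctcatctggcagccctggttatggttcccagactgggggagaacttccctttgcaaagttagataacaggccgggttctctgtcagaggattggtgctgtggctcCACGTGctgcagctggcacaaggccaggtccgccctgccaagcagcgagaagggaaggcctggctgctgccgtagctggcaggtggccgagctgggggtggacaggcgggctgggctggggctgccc
Cry1, chr10:85185055-85185304, minus strand: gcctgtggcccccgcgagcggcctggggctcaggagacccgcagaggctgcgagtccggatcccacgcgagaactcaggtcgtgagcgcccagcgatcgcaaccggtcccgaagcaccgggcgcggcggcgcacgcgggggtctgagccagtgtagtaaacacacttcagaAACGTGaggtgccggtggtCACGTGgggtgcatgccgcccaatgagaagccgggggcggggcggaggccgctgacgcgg
Nfil3, chr13:52981040-52981289, minus strand: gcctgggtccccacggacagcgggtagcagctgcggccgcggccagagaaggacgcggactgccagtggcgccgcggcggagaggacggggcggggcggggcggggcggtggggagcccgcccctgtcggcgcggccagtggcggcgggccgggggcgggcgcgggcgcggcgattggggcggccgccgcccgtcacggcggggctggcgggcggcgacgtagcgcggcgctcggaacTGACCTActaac
An E-box was found for 3 of the 9 genes, Per1, Tef and Cry1, beginning 166, 127 and 60 bases before the start, and in 6.02% of all 32851 windows. The E' box was found for Cry1, 79 bases before the start, and for Nr1d1, against 3.85% of all windows. Nfil3 held a ROR element core 12 bases before its start, on the opposite strand, a motif present in 5.38% of all windows. No D-box was found for the 9 genes, against 0.931% of all windows. The windows of Dbp, Nr1d2, Clock and Npas2 held no match to any of these letters.

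The arrays of Gsr-null samples 2 and 3 stood apart at the low end of their values, and were singled out with earlier results of these data known. The 5th percentile of their log2 values, a measure of the array floor, was 1.79 and 1.76, against 1.53 to 1.62 on the other 9 arrays. The 3' minus 5' difference of the Actb and Gapdh control probe sets, which tracks how whole the RNA was, was 0.54 to 0.70 in 5 samples, namely Gsr-null 1, 2 and 3 and WT 2 and 4, and 1.20 to 1.75 in the other 6. The targeted gene checks the labels, and Gsr was lower in Gsr-null livers by a log2 difference of -1.83 (limma SE 0.123 and adjusted p = 1.82e-05), with 4.71 to 5.29 in Gsr-null livers and 6.62 to 6.93 in WT livers, and it was 5.29 and 5.09 in Gsr-null samples 2 and 3. Hepatocyte markers were high throughout, with Alb, the serum albumin gene, at 14.29 and 14.55 in these 2 samples and 13.95 to 14.49 in the others. Results are therefore given with and without these 2 samples.

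Dbp, the D-box activator and one of the most rhythmic transcripts of liver, was lower in Gsr-null samples 2 and 3 than in any other liver, by at least 4.71 log2 units on its brighter probe set and 4.63 on the second. The brighter probe set read 10.76, 5.79, 4.40, 10.85, 10.83 and 10.50 in Gsr-null samples 1 to 6, against 11.16, 11.17, 11.05, 10.95 and 10.89 in WT samples 1 to 5. The other 4 Gsr-null livers thus lay between -0.54 and -0.20 from the WT mean of 11.04, and samples 2 and 3 at -5.25 and -6.65 from it. The second probe set, which unlike the first is not of the kind that can bind several transcripts, showed the same 2 samples low. It read 4.44 and 4.21 there, 9.07 to 9.61 in the other Gsr-null livers and 9.55 to 9.98 in WT livers.

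The direction in these 2 livers differed between genes of the loop. Of the 10 tested probe sets, 9 had both samples outside the range of the other 9 livers, against a background of 9.85% of all 9560 tested probe sets. In 4 both samples were above the others, against 5.96%, and in 5 below, against 3.89%. A gap of at least 1 on the log2 scale was found for 4 of the 10, the probe sets of Dbp, Nr1d2 and Nfil3, and for 0.115% of all tested probe sets. The gaps of the Dbp probe sets, 4.71 and 4.63, ranked 1 and 2 among all 9560, that of Nr1d2 ranked 6 and that of Nfil3 ranked 9. These samples were singled out by their arrays and with earlier results of these data known, so the counts describe these 2 livers and carry no test.

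Among genes of the activating arm, Clock read 5.74, 6.77, 6.75, 5.68, 5.51 and 5.42 in Gsr-null samples 1 to 6, against 5.68, 5.78, 5.47, 6.31 and 5.34 in WT samples 1 to 5. Samples 2 and 3 were highest and WT sample 4 came next. All 5 livers with a low 3' minus 5' difference, at 5.74 to 6.77, lay above the other 6, at 5.34 to 5.68. The second Clock probe set read 5.34 and 5.38 in Gsr-null samples 2 and 3 and 4.03 to 4.49 in the other 9 livers. Npas2 was under the level of 4 in every liver, at 2.14 to 2.73 in Gsr-null and 2.18 to 2.49 in WT livers on its brighter probe set. Its second probe set, also close to the floor, read 2.81 and 2.30 in Gsr-null samples 2 and 3 and 1.57 to 2.00 in the other 9.

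Arntl, the partner of CLOCK and not one of the 10 genes, was singled out after its values were seen. It read 2.72, 6.78, 6.19, 2.77, 2.66 and 2.49 in Gsr-null samples 1 to 6, against 2.23, 2.45, 2.43, 2.74 and 2.66 in WT samples 1 to 5. It was thus above the level of 4 in Gsr-null samples 2 and 3 and in no other liver. For that reason it did not enter the tests.

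The repressing arm was split. Cry1 read 4.96, 7.31, 7.72, 5.98, 6.00 and 6.45 in Gsr-null samples 1 to 6, against 6.08, 5.43, 5.50, 5.63 and 5.10 in WT samples 1 to 5, with samples 2 and 3 highest. Per1 read 3.47, 3.05, 2.82, 4.79, 4.77 and 4.79 in the Gsr-null livers, against 4.68, 4.35, 4.95, 3.85 and 4.55 in the WT livers. Here samples 2 and 3 were lowest and Gsr-null sample 1 came next, all 3 under the level of 4, as was WT sample 4. Per1 also followed the control 3' minus 5' difference, with 2.82 to 4.35 in the 5 livers with a low difference and 4.55 to 4.95 in the other 6.

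Per2 did not share this order. Its tested probe set read 7.09, 5.76, 6.89, 6.95, 7.61 and 7.57 in Gsr-null samples 1 to 6, against 7.76, 6.94, 6.95, 7.43 and 6.72 in WT samples 1 to 5. Gsr-null sample 2 was lowest by 0.96, while sample 3 lay inside the WT range. The second Per2 probe set was between 2.17 and 2.78 in all livers.

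The REV-ERB gene Nr1d2 read 10.22, 8.80, 7.82, 10.11, 10.08 and 10.01 in Gsr-null samples 1 to 6, against 10.30, 10.52, 10.05, 10.30 and 10.003 in WT samples 1 to 5. Samples 2 and 3 were 1.20 or more below every other liver, and the other 4 Gsr-null livers fell inside the WT range. Nr1d1, whose probe set stayed close to the floor, was 2.48 to 3.89 in Gsr-null and 3.16 to 4.03 in WT livers, with Gsr-null sample 3 lowest. The second Nr1d2 probe set was under 2.5 throughout.

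Tef, the relative of Dbp, read 7.82, 6.57, 7.29, 8.59, 8.39 and 7.96 in Gsr-null samples 1 to 6, against 8.39, 8.45, 8.47, 8.11 and 8.56 in WT samples 1 to 5. Samples 2 and 3 were lowest, and sample 1 was next. Nfil3, the repressor at D-box sites, read 5.89, 7.98, 7.53, 5.63, 6.42 and 6.30 in the Gsr-null livers, against 6.15, 6.15, 5.77, 5.71 and 5.83 in the WT livers. For Nfil3 the order was turned round, with samples 2 and 3 highest by 1.11 or more. In whole liver, fewer cells of a type and less RNA per cell cannot be told apart.

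**Figure D1:**
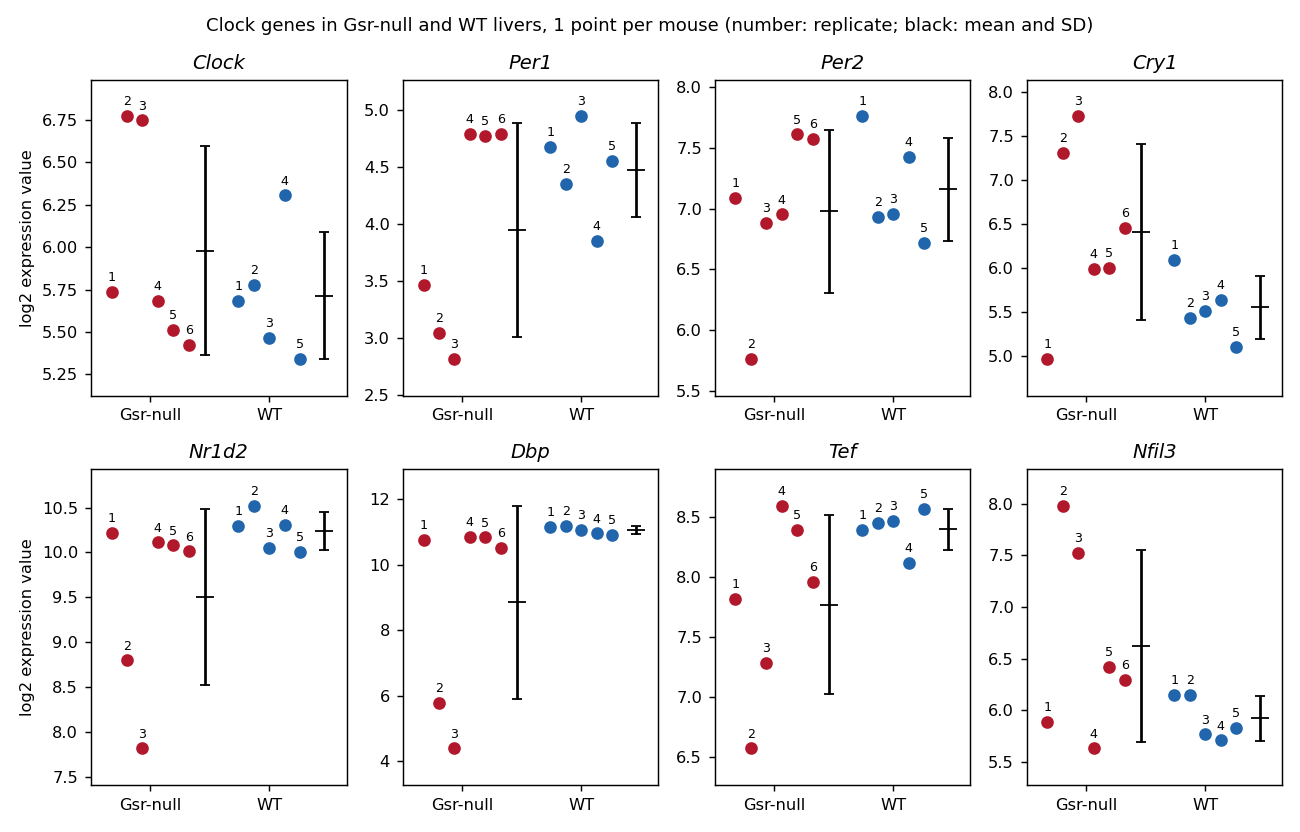
Log2 expression value (y axis) of the brightest tested probe set of 8 clock genes in Gsr-null (red, n = 6) and WT (blue, n = 5) livers, 1 point per mouse with its replicate number, and the mean and SD in black. Gsr-null samples 2 and 3 are lowest for Dbp, Nr1d2, Tef and Per1 and highest for Clock, Cry1 and Nfil3, while for Per2 sample 2 alone is low.

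**Figure D2:**
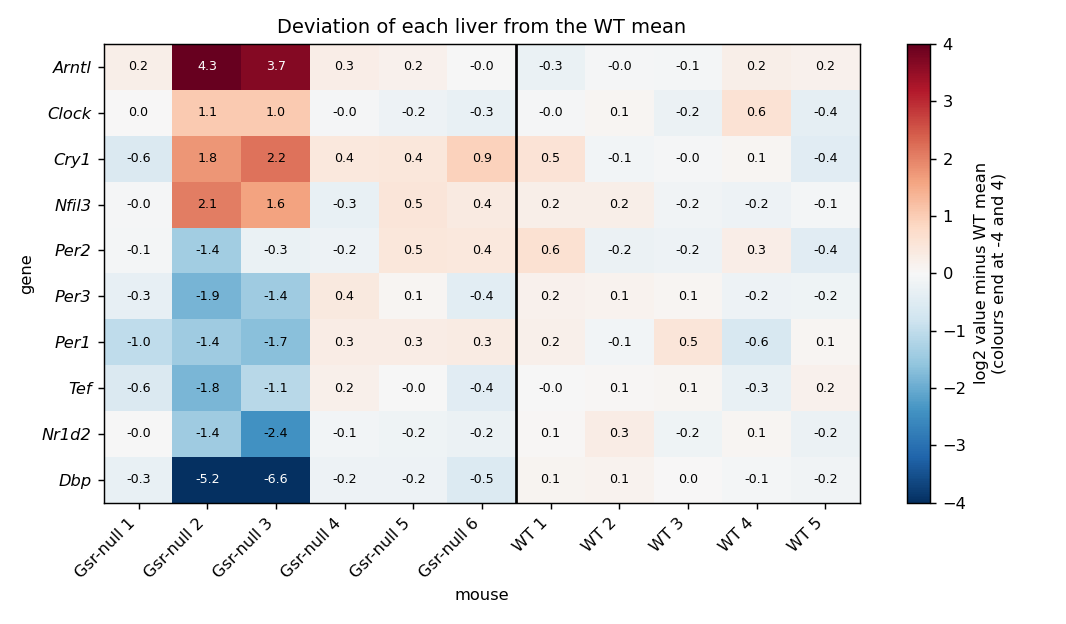
Log2 value minus the WT mean for the 8 tested clock genes and for Arntl and Per3 (rows) in each mouse (columns, Gsr-null left of the line and WT right of it), with the value printed in each cell and colours ending at -4 and 4. The columns of Gsr-null samples 2 and 3 carry the darkest cells, red for Arntl, Clock, Cry1 and Nfil3 and blue for Dbp, Nr1d2, Tef, Per1 and Per3.

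The genotype comparison asked whether clock transcripts differ in livers without Gsr. No clock gene passed the test. By limma, 0 of the 10 tested probe sets had an adjusted p under 0.05, against 0.387% of all tested probe sets (0.167% higher and 0.22% lower in Gsr-null livers), and 0 had an unadjusted p under 0.05, against 8.36%. At an unadjusted p under 0.1 there were 6, against 13.8%. The median difference, Gsr-null minus WT, was -0.35 over the 10 probe sets and -0.029 over all 9560. Without Gsr-null samples 2 and 3 these medians were -0.074 and -0.047.

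Dbp averaged 8.85 ± 2.95 in Gsr-null livers (SD, n = 6) and 11.04 ± 0.123 in WT livers (SD, n = 5). The difference was -2.19 (SE 1.15, limma adjusted p = 0.686), and -2.02 (SE 1.02, limma adjusted p = 0.661) on the second probe set. On the brighter probe set every Gsr-null liver lay below every WT liver, by 0.047 at the nearest point, which held for 1 of the 10 probe sets and for 1.36% of all tested probe sets. Without Gsr-null samples 2 and 3 the difference was -0.31 (SE 0.124, limma adjusted p = 0.631).

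For Nr1d2 the difference was -0.73 (SE 0.396, limma adjusted p = 0.697) and for Tef -0.63 (SE 0.306, limma adjusted p = 0.638). Per1 and Per2 differed by -0.53 and -0.18. Differences of the opposite sign were measured for Cry1, at 0.86 (SE 0.415, limma adjusted p = 0.636), Nfil3, at 0.70 (SE 0.379, limma adjusted p = 0.694), and Clock, at 0.26 and 0.37 on its probe sets. The adjusted p of the Per1, Per2 and Clock probe sets lay between 0.853 and 0.979.

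Without Gsr-null samples 2 and 3 the differences of the other genes were -0.13 for Nr1d2, -0.21 for Tef, -0.019 for Per1, 0.15 for Per2, 0.30 for Cry1, 0.14 for Nfil3 and -0.13 and -0.022 for Clock. Each was smaller in size than with all 11 livers, and the signs of Per2 and Clock were turned. The fit of the 9 livers also called 0 of the 10 probe sets, against 0.105% of all tested probe sets (0.0628% higher and 0.0418% lower in Gsr-null livers). At an unadjusted p under 0.05 it held 2, those of Dbp, against 6.88%.

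**Figure D3:**
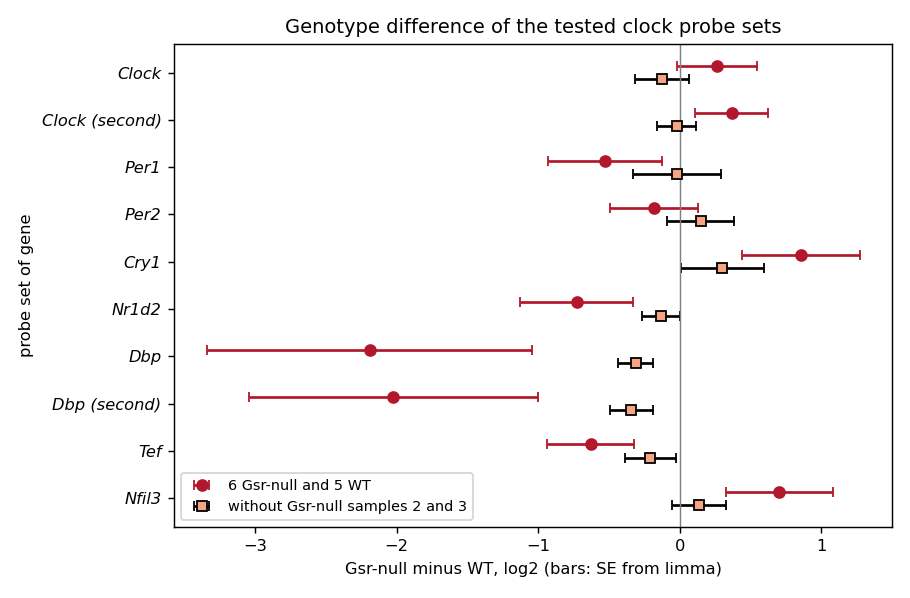
Gsr-null minus WT difference on the log2 scale (x axis, bars are the SE from limma) for the 10 tested clock probe sets, with 6 Gsr-null and 5 WT livers (red circles) and without Gsr-null samples 2 and 3 (light squares). With all livers the Dbp probe sets sit at -2.19 and -2.02, and without the 2 samples at -0.31 and -0.34.

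The 3' minus 5' difference of the control probe sets was set beside the clock genes. The 5 livers with a low difference did not overlap the other 6 for 2 of the 10 tested probe sets, those of Per1 and the brighter of Clock, against 5.91% of all tested probe sets. Within the low livers Per1 differed between genotypes by -0.99 and within the others by 0.059, and this Clock probe set by 0.38 and 0.043. For Dbp the sets overlapped. Gsr-null samples 2 and 3 belonged to the samples with a low 3' minus 5' difference, in which Dbp differed by -4.08, and in the other 6 samples it differed by -0.31. The 3 other livers with a low value, Gsr-null 1 and WT 2 and 4, had Dbp at 10.76, 11.17 and 10.95. With these sets as a block the difference of Dbp was -1.98 (SE 1.03, limma adjusted p = 0.577). The part of this difference, and of the higher floor of arrays 2 and 3, in the results was not tested.

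The labels bear on spread as well as on means, since all livers were taken in the same 2 h of the day. In Gsr-null livers the ranges were 6.45 for Dbp, 2.76 for Cry1, 2.40 for Nr1d2, 2.35 for Nfil3, 2.02 for Tef, 1.97 for Per1, 1.85 for Per2 and 1.35 for Clock. Without samples 2 and 3 they were 0.34 for Dbp, 0.21 for Nr1d2 and 0.31 for Clock. For Nfil3, Tef and Per2 they were 0.79, 0.78 and 0.66. They stayed above 1 for Per1 and Cry1, at 1.32 and 1.496. Both rested on Gsr-null sample 1, at 3.47 and 4.96, against 4.77 to 4.79 and 5.98 to 6.45 in the remaining Gsr-null livers. Over the 5 WT livers the range was 0.28 for Dbp, 0.98 for Cry1, 0.52 for Nr1d2, 0.44 for Nfil3, 0.45 for Tef, 1.10 for Per1, 1.04 for Per2 and 0.97 for Clock.

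Among all tested probe sets, the SD of Dbp over the 6 Gsr-null livers ranked 7 of 9560, and over the 5 WT livers 8507. In WT livers the SD of Per2, Per1, the brighter Clock probe set and Cry1 lay at the 81.4th, 80th, 75.1st and 72.8th percentile. The second Clock probe set lay at the 15.6th. Nfil3, Nr1d2, the second Dbp probe set and Tef lay at the 37.7th, 36.4th, 24.6th and 24th. Of the 10 clock probe sets, 8 were above the 90th percentile of SD in Gsr-null livers and 0 in WT livers. Without samples 2 and 3 it was 2, Per1 and Cry1, and of the Gsr-null livers left, sample 1 stood apart as lowest for both. The median SD over all tested probe sets was 0.300 in Gsr-null and 0.256 in WT livers, so that spread in general differed little beside that of Dbp, at 2.95 and 0.123.

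A test of the spread itself depended on the measure. With limma on absolute deviations from the genotype mean, 0 of the 10 probe sets passed, against 0.0105% of all tested probe sets, but this test missed most planted differences in simulated data. Its count became 3 without Gsr-null sample 1, 2 without Gsr-null sample 4, 5 or 6, and 1 without WT sample 1. On the log2 of those deviations, a measure chosen after the 2 livers were seen, 2 passed, those of Dbp, against 0.0732% of all tested probe sets. Without Gsr-null samples 2 and 3 it was 0, against 0.0105%. Samples 2 and 3 also move the Gsr-null mean from which the other livers deviate, so this count restates their position and is no separate support.

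The measured ranges were set against what a smooth rhythm can cross in the harvest window. A cosine with a period of 24 h crosses at most 25.9% of its peak-to-trough difference in 2 h. To cross the range of Dbp in WT livers, its peak-to-trough difference would have to be at least 1.08 log2 units. For Nr1d2, Tef and Nfil3 it would have to be at least 2.01, 1.74 and 1.72. Per1, Per2, Cry1 and Clock would need more, at least 4.24, 4.02, 3.80 and 3.73. On the second Clock probe set it would be 1.30. Per1 and the brighter Clock probe set also separated the livers with a low 3' minus 5' difference from the others. The part of that difference in these ranges was not tested. For the 6 Gsr-null livers the figures were 24.9 for Dbp, 10.7 for Cry1, 9.27 for Nr1d2 and 9.09 for Nfil3. They were 7.82 for Tef, 7.62 for Per1, 7.15 for Per2 and 5.22 for Clock. Without samples 2 and 3 the figures were 1.33 for Dbp, 0.80 for Nr1d2 and 1.21 for Clock. For Per2, Tef and Nfil3 they were 2.54, 2.997 and 3.05. Those of Cry1 and Per1 were largest, at 5.78 and 5.10, and lay above every WT figure given here. A rhythm with a sharper rise than a cosine would need less, and no harvest hour is given for any mouse, so that spread cannot be assigned to time.

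**Figure D4:**
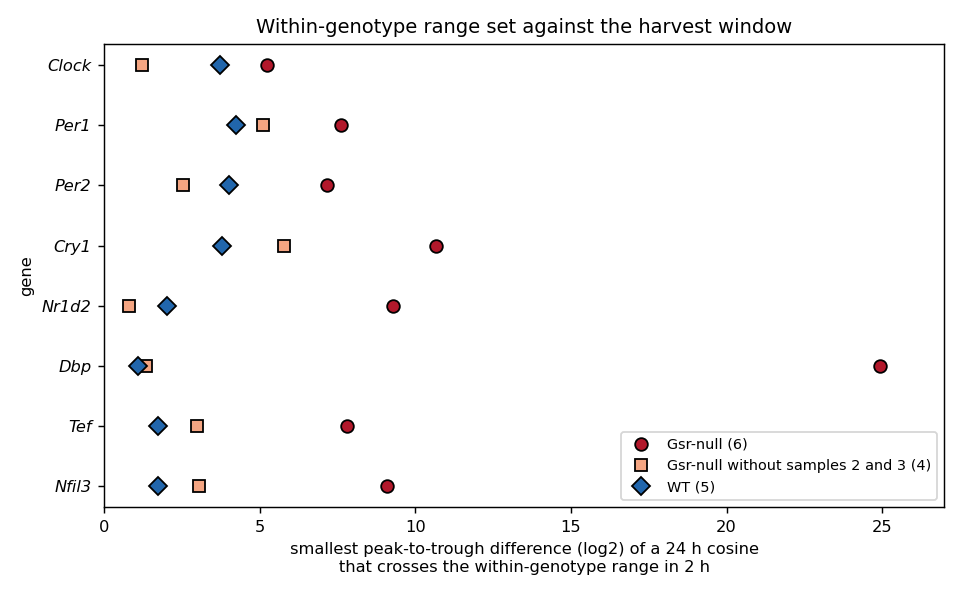
The smallest peak-to-trough difference, in log2 units, that a 24 h cosine would need to cross the measured within-genotype range in 2 h (x axis) for 8 clock genes, in 6 Gsr-null livers (red circles), the 4 Gsr-null livers without samples 2 and 3 (light squares) and 5 WT livers (blue diamonds). The red circle of Dbp lies farthest right, at 24.9, while its square and diamond lie at 1.33 and 1.08.

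Whether clock genes varied together from mouse to mouse was examined in the 9 livers without Gsr-null samples 2 and 3, since the 11 livers fell into separate clusters for these genes. Deviations from the genotype mean were compared in 28 pairs of genes, and 0 pairs passed, by r or by rho, after Benjamini-Hochberg adjustment over the pairs by an exact permutation test (two-sided, n = 9). The largest Pearson correlation was between Per1 and Tef, at 0.70 (exact p = 0.0365, adjusted p = 0.373, Spearman's rho 0.53 with exact p = 0.148). It rested on single livers, since r was 0.030 without the 2 livers farthest from the median of Per1. Per2 and Cry1 gave r = 0.69 (exact p = 0.0372, adjusted p = 0.373, rho 0.65 with exact p = 0.0666), and 0.59 without the 2 farthest livers. The largest rank correlation was between Clock and Nr1d2, with rho 0.85 (exact p = 0.00607, adjusted p = 0.17). Its r was 0.63 (exact p = 0.0665, adjusted p = 0.373), and 0.78 without the 2 livers farthest from the median of Clock. The Per1 and Clock probe sets used here were those that separated the livers by 3' minus 5' difference. The part of that difference in these pairs was not tested.

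Over all 11 livers, a fit of each probe set on genotype and Dbp called 2 of 8 clock probe sets, Nr1d2 (limma adjusted p = 0.00485) and the second of Clock (limma adjusted p = 0.0483), against 0.0628% of all 9558 probe sets tested. Nr1d2 had a slope of 0.33 log2 units per log2 unit of Dbp (SE 0.0322) and Clock one of -0.20 (SE 0.0301). Without Gsr-null samples 2 and 3, 0 of the 8 were called, against 0% of the 9558, and 0 had an unadjusted p under 0.05, against 5.07%. Leaving out single livers gave 5 without Gsr-null sample 1, 0 without Gsr-null sample 3 and 1 without any other liver. These slopes therefore describe the position of Gsr-null samples 2 and 3.

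The genes outside the loop most like Dbp over the 11 livers were Lima1, Slc25a4, Cotl1, Atp6v1c1 and Fam76a, with r between 0.90 and 0.97 on deviations from the genotype mean, given as a description of likeness. Most opposite were Crip2, Mif4gd, Eps8l2, Dnajb9 and H2ax, with r between -0.96 and -0.93. Among 6022 genes Nr1d2 ranked 2, after Dbp itself, and Nfil3 ranked 25 from the opposite end. Crip2 read 8.23 and 8.57 in Gsr-null samples 2 and 3 and 6.99 to 7.45 in the other 9 livers, and Eps8l2 6.31 and 6.09 against 4.44 to 4.99. Fam76a read 5.63 and 5.49 against 6.31 to 7.18. Over the 9 livers without samples 2 and 3, r with Dbp stayed high for Lima1, at 0.81, and was between 0.068 and 0.24 for the other 4 like genes. Among the opposite genes it was -0.59 for Mif4gd, -0.43 for Crip2, -0.34 for Eps8l2, -0.15 for Dnajb9 and 0.24 for H2ax.

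Of the other genes of the clock loop, 8 were on the array, 5 were tested and 0 were called, against 0.387% of all tested probe sets. The median difference of the 5 was -0.12, or -0.024 without Gsr-null samples 2 and 3. Per3, the remaining Per gene, read 3.95 and 4.41 in Gsr-null samples 2 and 3, 5.41 to 6.22 in the other Gsr-null livers and 5.61 to 5.99 in WT livers, with a difference of -0.59 (SE 0.355, limma adjusted p = 0.77), or -0.070 without samples 2 and 3. It was the 1 of the 5 with both samples outside the other 9 livers, against 9.85% of all tested probe sets. Rora, Cry2, Bhlhe40 and Hlf differed by -0.037, -0.21, -0.12 and -0.046, and without samples 2 and 3 by -0.30, -0.024, 0.0023 and -0.0054.

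Of 12 tested kinases, ligases and partners of clock proteins 0 were called, against 0.387% of all tested probe sets. Ppargc1b, a coactivator of nuclear receptors, had the smallest p of the list, with a difference of -0.79 (SE 0.255, limma adjusted p = 0.343). It and Ppargc1a were the 2 of the 12 with both Gsr-null samples 2 and 3 below all other livers, against 3.89% of all tested probe sets.

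Clock-output genes of liver were called in 0 of 17 cases, against 0.387% of all tested probe sets. They had 9 positive and 8 negative differences and a median of 0.017, or -0.066 without Gsr-null samples 2 and 3. The smallest p belonged to Ces1g, a carboxylesterase, at 1.29 (SE 0.271, limma adjusted p = 0.0863). In 8 of the 17, samples 2 and 3 were both outside the other 9 livers, against 9.85% of all tested probe sets, with 4 above, against 5.96%, and 4 below, against 3.89%. Elovl3, a fatty acid elongase, read 11.85 and 10.57 in samples 2 and 3 and 7.75 to 9.05 in the others, while Lpin1, a phosphatidate phosphatase, read 7.53 and 6.93 against 7.56 to 10.13. Lpin1 also separated the 5 livers with a low 3' minus 5' difference, at 6.93 to 8.65, from the other 6, at 8.76 to 10.13. Wee1, a cell-cycle kinase, read 4.45 and 4.30 against 4.77 to 6.16.

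Genes that follow body temperature, glucocorticoids or feeding, cues that also act on the liver clock, were called in 0 of 9, 0 of 10 and 0 of 12 cases. The share over all tested probe sets was 0.387%. The median differences of these lists were -0.060, 0.50 and -0.24, and without Gsr-null samples 2 and 3 -0.072, 0.21 and 0.042. The smallest p in each list belonged to Tubb2a, a tubulin, at 1.62 (limma adjusted p = 0.421), Lcn2, a secreted lipocalin, at 4.98 (limma adjusted p = 0.146), and Vnn1, a pantetheinase, at -3.43 (limma adjusted p = 0.448). Both samples 2 and 3 were outside the other livers for 1 member of each list, against 9.85% of all tested probe sets. The members were Cirbp, a cold-inducible RNA-binding protein, at 5.92 and 5.29 against 5.94 to 6.61, Dusp1, a phosphatase of MAP kinases, at 9.27 and 8.43 against 4.48 to 8.32, and again Ppargc1a.

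The summed log2 level of 7 hepatocyte markers was 92.0 and 92.1 in Gsr-null samples 2 and 3, above all other livers, at 89.5 to 89.9 in the other Gsr-null livers and 87.6 to 91.3 in WT livers. Its part in the results was not tested. In no list of hepatocyte (7 tested), Kupffer cell and macrophage (7), sinusoidal endothelial (5) or stellate cell markers (3) did a single tested gene have both samples outside the other livers. The share of all tested probe sets with both samples outside was 9.85%. The summed level of the Kupffer list was 50.7 and 50.8 in samples 2 and 3, 45.8 to 53.6 in the other Gsr-null livers and 47.8 to 52.2 in WT livers. That of the endothelial list was 34.0 and 36.3, against 30.2 to 34.8 and 32.2 to 35.4, and that of the stellate list 23.7 and 22.8, against 20.1 to 26.0 and 21.6 to 22.5. Markers of cholangiocytes, neutrophils, and B and T cells did not pass the filter on low values in any case.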

How the data were processed

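Liver RNA of 6 Gsr-null and 5 WT mice was measured on single-colour Affymetrix arrays. The authors deposited 1 value per probe set and sample, made with GCRMA per the submitters' processing notes and read here as log2 from its range. Its version, filters and batches are not given in the sources used here. Of 22690 probe sets, 64 controls were left out. Probe sets above 4 in at least 5 samples were tested with limma 3.58.1 in R 4.3.3 (lmFit, eBayes, 9560 probe sets), with Benjamini-Hochberg adjustment over all of them. The number of arrays limits the precision. Spread was tested on deviations from the genotype mean, and likeness to Dbp with Dbp as a covariate. Fits were tested on simulated data. The members and lists were chosen with earlier results of these data known. Named genes are the members, the gene with the smallest p of each list, and the 5 genes most and least like Dbp. Arntl, Rora, Cry2, Bhlhe40, Hlf, Rgs16 and genes named for Gsr-null samples 1, 2 and 3 were chosen after their values were seen. Npas2 was not tested, so genes like it were not sought. Alternatives covered filters, scaling, variance models, weights, blocks and omitted samples. The labels name no pairs. Deviations from the genotype mean in samples of the same replicate number correlated at -0.243 to 0.0361, which cannot show whether the mice were paired. Figures used matplotlib 3.10.9.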

Additional observations from a re-analysis of the deposited data

Results flagged for a closer look

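In 2 of 34 groups of values of the clock probe sets, 1 liver stood far from the rest of its genotype, where chance gives 1.7. Npas2 on its brighter probe set was 2.728 in Gsr-null sample 2, against 2.141 to 2.341 in the other Gsr-null livers, below the level of 4 in each case. Tef on a second, untested probe set was 4.96 in Gsr-null sample 1, against 2.919 to 3.484 in the others. A pair of livers that stand apart together, as Gsr-null samples 2 and 3 did for Dbp, is not picked up by such a search for single values.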

How the results depend on the processing

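Gsr-null samples 2 and 3 were left out of the genotype and spread comparisons for the floor of their arrays. Earlier results of these data were known at that point. Leaving these samples out of the Dbp fit, the pairs and the lists was chosen after the data were seen. So were the log2 measure of spread and the sets within spread. The count of clock probe sets called between genotypes stayed at 0 under every alternative run. Of 167 differences of single clock genes under alternatives, 164 kept their sign and 0 were called. The exceptions were Clock, at -0.13, and Per2, at 0.15, without Gsr-null samples 2 and 3, and Per2 on leaving out single livers, at -0.31 to 0.063, positive without Gsr-null sample 2. Sizes moved more: leaving out single livers gave Dbp differences of -2.59 to -1.298. Over all tested probe sets, the 37 calls became 14 with the filter at 6, where fewer are tested, 10 without Gsr-null samples 2 and 3, 10 with a plain two-sample test, and 14 to 42 on leaving out single livers. The count moved by over 1.5 times without Gsr-null sample 2 or 3 or any WT liver. With the replicate number as a block it was 3, but the labels name no pairs of livers. The count of clock probe sets with a spread difference, 0, became 2 on the log2 measure, and 0 to 3 on leaving out single livers, with 3 without Gsr-null sample 1, 2 without sample 4, 5 or 6 and 1 without WT sample 1. The count associated with Dbp, 2, became 1 with a block for low or high 3' minus 5' difference, 1 with the filter at 6, 0 with Nr1d1 in place of Dbp, 0 without Gsr-null samples 2 and 3, and 0 to 5 on leaving out single livers, with 5 without Gsr-null sample 1, 0 without sample 3 and 1 without any other. Of 28 gene pairs, 19 passed over all 11 livers and 0 without Gsr-null samples 2 and 3. The causes were not tested. Low signal limits what can be said of Npas2, Nr1d1 and Arntl.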

Other observations

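Gsr-null sample 1 was near samples 2 and 3 for some clock-driven genes and near the rest for others, a pattern picked out after its values were seen and not tested. Usp2, a ubiquitin-specific protease, read 7.20 in sample 1, 3.95 and 7.43 in samples 2 and 3, 8.79 to 9.13 in samples 4 to 6, and 8.09 to 9.51 in WT livers. It also separated the 5 livers with a low 3' minus 5' difference, sample 1 among them, at 3.95 to 8.63, from the other 6, at 8.79 to 9.51. Alas1, the first enzyme of heme synthesis, read 8.50 in sample 1, 8.24 and 9.96 in samples 2 and 3, 10.15 to 11.71 in samples 4 to 6, and 10.23 to 11.81 in WT livers. Yet its Dbp, at 10.76, and its Arntl, at 2.72, lay with those of samples 4 to 6.

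Rgs16, a regulator of G-protein signalling and a clock-output gene, varied widely within both genotypes. It read 5.08, 3.87, 4.597, 8.61, 9.36 and 4.61 in Gsr-null samples 1 to 6, against 7.93, 7.52, 8.78, 5.88 and 5.85 in WT samples 1 to 5. Its difference was -1.17 (SE 1.02, limma adjusted p = 0.912), or -0.28 without Gsr-null samples 2 and 3, which lay below the other 9 livers. It was picked out after its values were seen. Dbp had a range of 0.28 over the same WT livers.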
